A study of Mus musculus with 24 samples.

Results

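Small leucine-rich proteoglycans are secreted proteins of the extracellular matrix with a core of leucine-rich repeats. 10 genes were examined, of 22282 in the deposited files: the class I genes Bgn, Dcn and Aspn, the class II genes Lum, Fmod, Prelp, Omd and Kera, and the class III genes Ogn and Epyc. They were listed by name and their RefSeq transcripts were summed per gene. The list was chosen by the FPKM of these same libraries, which were known when it was drawn up, so their levels and differences are given as a description, without a test. 8 of the 10, and 14964 of all genes, had a mean FPKM of at least 1 over the 24 libraries, and Kera and Epyc did not. A gene that is high in 1 group alone passes this filter, so no count over the 8 supports anything further.

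The RNA of C57BL/6J mouse cells was sequenced in 8 groups of 3 libraries. MACs are cells of the amniotic fluid of embryos at E11.5 to E13.5, and Akt-MACs also carried a lentivirus for constitutively active myristoylated Akt. RACVECs are MACs transduced with lentiviruses for the Ets factors Etv2, Erg and Fli1. Akt-RACVECs carried the same 3 factors and myristoylated Akt, and Sox17-RACVECs the same 3 factors and Sox17. Akt-LECs and Akt-liver ECs are lung and liver endothelial cells (ECs) that were cultured with myristoylated Akt and purified again by FACS on VEcad and CD31, and LSECs are liver ECs sorted by FACS without culture. Etv2, Erg, Fli1 and Akt were expressed from the PGK promoter of a lentiviral vector, Sox17 from another lentiviral vector with puromycin selection. Converted cells were kept in EC medium with an inhibitor of TGF-β signalling, whereas MACs were isolated in another medium. The factors and the medium therefore cannot be told apart between MACs and RACVECs. Akt-LECs and Akt-liver ECs were plated in the same EC medium, so the medium also sets them apart from MACs and from uncultured LSECs. The paper describes its lung ECs and directly purified liver ECs as adult, so age differs from the embryonic cells too. Replicates of MACs came from separate isolations of embryos of both sexes. The study describes its libraries as individual isolates, and whether those of the EC groups came from separate animals is not given in the sources used here, so p-values measure the spread between these isolates.

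Decorin (Dcn), biglycan (Bgn), lumican (Lum) and fibromodulin (Fmod) bind fibrillar collagens and regulate how the fibrils assemble. Class I proteins usually carry chondroitin or dermatan sulphate chains and several class II proteins carry keratan sulphate, and decorin and biglycan also bind TGF-β. The family is best known from connective tissue, where fibroblasts and other mesenchymal cells make most of it, while endothelial cells are known as a source of biglycan.

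9 of the 10 genes lie in 3 clusters of neighbours, given here in mm9 coordinates of GENCODE M1. On chromosome 10, Dcn (96942245 to 96980777), Lum (97028135 to 97035337), Kera (97069817 to 97076322) and Epyc (97106702 to 97145088) follow each other on the plus strand within 202.8 kb. On chromosome 13, Aspn (49639812 to 49662926), Omd (49678135 to 49687978) and Ogn (49703440 to 49719869) follow Ecm2 (49600179 to 49628158), a related gene outside the 10, on the plus strand within 119.7 kb. On chromosome 1, Prelp (135806881 to 135817991, minus strand) lies beside Optc, and Fmod (135933831 to 135944854, plus strand) lies 115.8 kb further on. Bgn is on chromosome X (70728941 to 70741272, plus strand).

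RefSeq sequences of the 250 bases before the start site, on GRCm38.p6, were matched for Bgn, Fmod, Ogn, Omd, Aspn, Prelp, Kera and Epyc and for the related genes Ecm2 and Optc. The 4 neighbours of chromosome 13 are printed because 3 of them varied together between libraries and the fourth did not. They are all on the plus strand, at chr13:49504560-49504809 for Ecm2, chr13:49544193-49544442 for Aspn, chr13:49582212-49582461 for Omd and chr13:49607765-49608014 for Ogn. Capitals mark matches, on either strand, to TATAAA or to ACAAT, the core letters of Sox sites.
Ecm2: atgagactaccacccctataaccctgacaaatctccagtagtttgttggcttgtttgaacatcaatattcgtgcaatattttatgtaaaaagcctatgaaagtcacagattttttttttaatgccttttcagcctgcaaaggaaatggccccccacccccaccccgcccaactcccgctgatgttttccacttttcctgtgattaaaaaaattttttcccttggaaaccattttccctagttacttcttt
Aspn: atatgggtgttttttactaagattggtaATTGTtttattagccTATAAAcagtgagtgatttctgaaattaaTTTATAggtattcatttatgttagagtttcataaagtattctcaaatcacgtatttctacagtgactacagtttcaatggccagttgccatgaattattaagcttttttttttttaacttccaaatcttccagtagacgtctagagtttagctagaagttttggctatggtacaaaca
Omd: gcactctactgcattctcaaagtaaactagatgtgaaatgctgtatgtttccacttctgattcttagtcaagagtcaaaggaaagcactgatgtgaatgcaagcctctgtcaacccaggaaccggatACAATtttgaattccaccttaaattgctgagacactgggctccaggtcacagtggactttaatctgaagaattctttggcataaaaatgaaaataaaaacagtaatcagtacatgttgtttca
Ogn: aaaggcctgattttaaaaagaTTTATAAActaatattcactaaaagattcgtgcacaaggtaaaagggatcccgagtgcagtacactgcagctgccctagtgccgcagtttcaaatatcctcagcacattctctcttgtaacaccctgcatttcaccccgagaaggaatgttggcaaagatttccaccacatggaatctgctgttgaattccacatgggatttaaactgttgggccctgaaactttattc
TATAAA was found in 12.4% of 32851 RefSeq promoter windows of the same length, ACAAT in 27.7% and CGGAAG in 13.6%. CGGAAG is a form of the Ets motif that the paper gives as (A/C)GGAA(G/A). The windows of Aspn and Ogn held 2 matches each to TATAAA, which in Ogn overlap on opposite strands, and the windows of Aspn and Omd held 1 match each to ACAAT. The window of Ecm2 held none of these 3 strings of letters, and CGGAAG was in none of the windows matched. Other forms of the Ets motif were not searched for, and the printed windows of Ecm2 and Omd hold aggaaa. The GC content was 30% in Aspn, 38.4% in Omd, 42.0% in Ogn and 40.0% in Ecm2, against a median of 52.4% over all windows, with quartiles of 45.2% and 61.2%. These are matches of letters and no binding was measured here.

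The values are FPKM, fragment counts scaled to transcript length and to the upper quartile of each library, computed by the authors, and depth is unknown. The summed FPKM was between 1689486 and 2317294 per library. Several libraries stood apart. The library labelled Sox17-RACVEC 2 had Etv2 listed at 0 and Erg at 387, whereas the other two Sox17-RACVEC libraries had Etv2 at 458 and 378 and Erg at 4.49 and 0. Erg was at 3.91, 13.8 and 0.9 in RACVECs, at 395, 1002 and 418 in Akt-RACVECs and at 176 to 442 in Akt-LECs. Sox17 was at 5.09, 40.1 and 200.1 in the 3 Sox17-RACVEC libraries. Akt1, whose own transcript and transgene are not told apart by the gene's FPKM, was 848 to 1279 in Akt-MACs and 872 to 1281 in Akt-RACVECs, against 551 to 692 in MACs and 607 to 694 in RACVECs. It was 892, 559 and 656 in Akt-liver ECs 1 to 3, of which libraries 2 and 3 lay within the range of MACs, and 884 to 1323 in Sox17-RACVECs, which carry no Akt by their labels. A sum of 7 macrophage markers was 225 in Akt-LEC 1 and 259 in Akt-liver EC 1, against at most 2.13 in the other libraries of these groups. In Akt-LEC 1 and Akt-liver EC 1, smooth muscle and pericyte markers summed to 1869 and 1576, against at most 124 in the others. Epithelial markers summed to 207 and 1659 in them, against at most 29.8. The macrophage sum was 175, 4853 and 12453 in Akt-MACs 1 to 3, against at most 0.79 in MACs. LSECs held markers of macrophages (7278 to 12483), hepatocytes (2125 to 11924) and red blood cells (34826 to 38716), and Lrat, a stellate cell gene, was between 52.7 and 59.0 in them. The sum of 10 endothelial markers was 53.2 to 95.5 in MACs and 2224 to 4591 in RACVECs, and between 5844 and 23112 in the other 5 EC groups. In bulk RNA of this kind, fewer cells of a type and less RNA per cell cannot be told apart.

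The summed FPKM of the 10 genes was between 1830 and 7571 in MACs, 1764 and 2852 in Akt-MACs, and 2789 and 3659 in RACVECs. It was between 274 and 602 in Akt-RACVECs and between 30.2 and 388 in Sox17-RACVECs, below every MAC, Akt-MAC and RACVEC library. In LSECs the sum was between 2294 and 3391. The cultured ECs spread further, with Akt-LECs from 911 to 2608 and Akt-liver ECs from 226 to 2052. In both groups the library with markers of macrophages and other cells had the highest sum. Bgn was the most abundant member in 14 of the 24 libraries, Dcn in 6, Prelp in 3 and Fmod in 1.

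**Figure D1:**
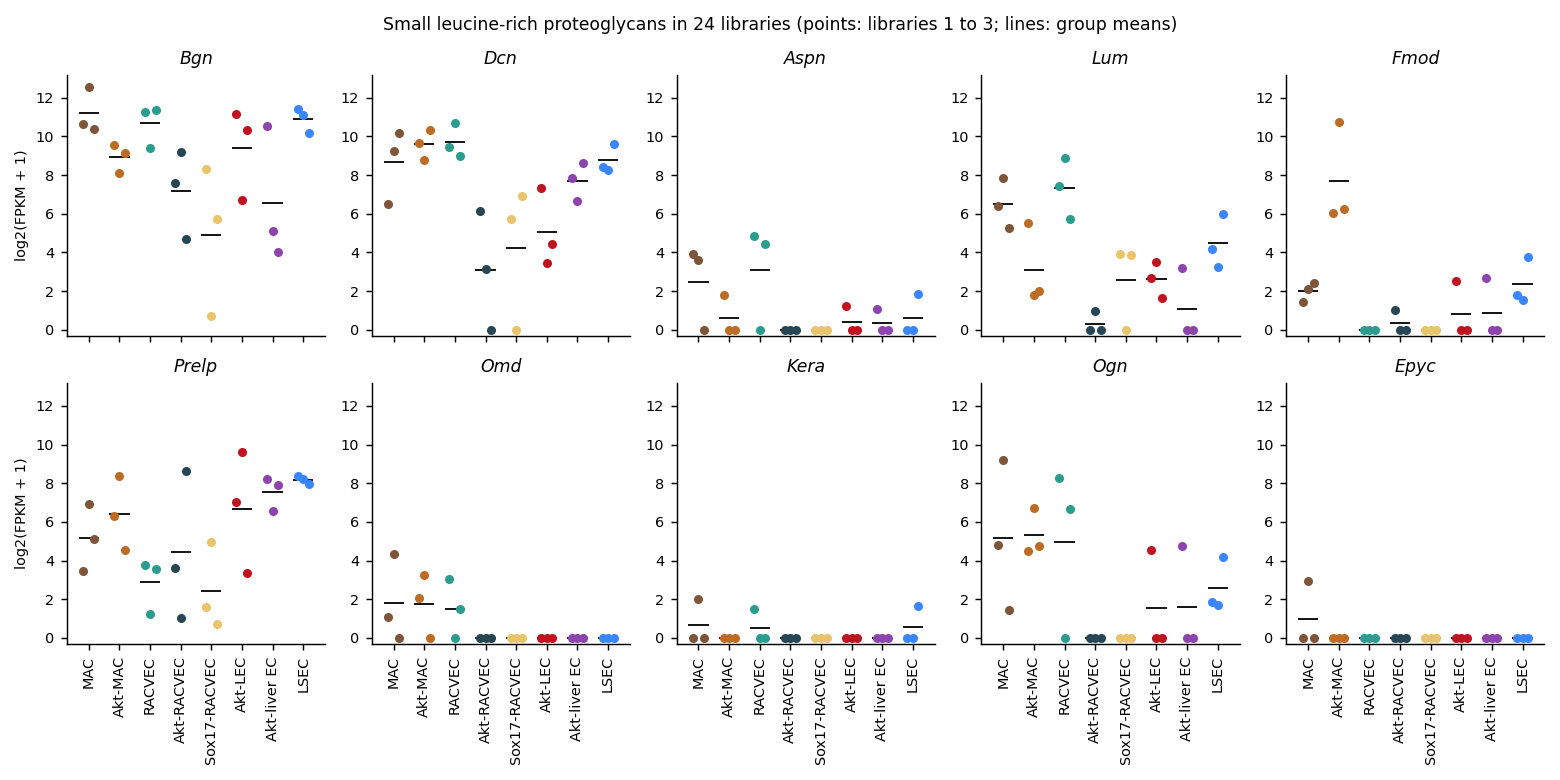
Levels of the 10 genes, as log2(FPKM + 1) on the vertical axis, in 24 libraries of 8 groups on the horizontal axis, with points for libraries and lines for group means of 3. Lum was listed at 0, 0.95 and 0 FPKM in Akt-RACVECs, and Epyc was above 0 in 1 library.

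Biglycan, a class I proteoglycan with chondroitin or dermatan sulphate chains, was above 0 in all 24 libraries. In MACs 1 to 3 its FPKM was 1601, 5983 and 1336, a mean of 2973 ± 2610 (SD, n = 3). It was 2443, 675 and 2679 in RACVECs, overlapping the MACs, and 741, 272 and 567 in Akt-MACs, below every MAC library. In Akt-RACVECs Bgn was 193, 592 and 24.98, and in Sox17-RACVECs 319, 0.65 and 52.1. All of these 6 libraries lay below the lowest RACVEC. LSECs had Bgn at 2694, 2182 and 1176. Akt-LECs had 2282, 104 and 1292 and Akt-liver ECs 1480, 33.6 and 15.4, so the cultured ECs spread widely and overlapped every other group. In both of these groups the highest value was that of the library with macrophage, smooth muscle and epithelial markers, whose 12 mesenchymal markers were all above 0. The part of such cells in the value was not tested.

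Decorin, the other abundant class I gene, was listed above 0 in 22 libraries. Its FPKM was 91.1, 609 and 1167 in MACs, 808, 433 and 1294 in Akt-MACs and 688, 1637 and 502 in RACVECs. These 3 groups overlapped. In Akt-RACVECs Dcn was 69.3, 7.93 and 0 and in Sox17-RACVECs 52.1, 0 and 121, all below every RACVEC library. Akt-LECs had Dcn at 162, 9.90 and 20.4, Akt-liver ECs at 234, 98.4 and 391 and LSECs at 346, 302 and 776. Akt-LECs 2 and 3 lay within the range of Akt-RACVECs, and all 3 Akt-liver EC libraries lay above it.

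2 RefSeq transcripts of Dcn were listed, of which 1 held most of the FPKM. In the 20 libraries with Dcn of at least 10, the share of the lesser transcript had a median of 5.36% and a range from 0.1% in Akt-liver EC 2 to 22.4% in LSEC 3. It was 16.9%, 16.1% and 22.4% in LSECs and 3.3%, 3.0% and 3.9% in RACVECs. The share was 19.2% in Akt-LEC 1 and 20.4% in Akt-liver EC 1 and at most 1.3% in the other libraries of those groups. In MACs it was 8.7%, 1.9% and 20.3%. The share is an estimate from reads that the transcripts have in common.

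Asporin (Aspn), the third class I gene, which lacks the usual chain attachment site, was low. Its FPKM was 13.9, 11.0 and 0 in MACs, 2.46, 0 and 0 in Akt-MACs and 27.7, 0 and 20.8 in RACVECs. It was listed at 0 in all Akt-RACVEC and Sox17-RACVEC libraries. Among the ECs it was above 0 in 3 of 9 libraries, Akt-LEC 1 (1.34), Akt-liver EC 1 (1.08) and LSEC 3 (2.66).

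Lumican, a class II keratan sulphate proteoglycan that limits fibril diameter, followed Dcn in part. Its FPKM was 84.3, 230 and 37.3 in MACs and 175, 476 and 51.1 in RACVECs. In Akt-RACVECs it was 0, 0.95 and 0, and in Sox17-RACVECs 14.2, 0 and 13.6, so that every library of both groups lay below every RACVEC. Akt-MACs were at 45.2, 2.47 and 3.03, where library 1 overlapped the MACs. Akt-LECs had Lum at 5.43, 10.3 and 2.10, Akt-liver ECs at 8.31, 0 and 0 and LSECs at 17.4, 8.38 and 62.8. Each LSEC library was above each Akt-liver EC library, the closest being 8.38 and 8.31.

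Fibromodulin, a class II gene that takes part in collagen cross-linking, was high in 1 group. In Akt-MACs its FPKM was 63.7, 1703 and 76.2, and the highest value in another group was 12.4 in LSEC 3. MACs had 1.71, 3.36 and 4.42. Fmod was listed at 0 in the 3 RACVEC and the 3 Sox17-RACVEC libraries and at 1.03, 0 and 0 in Akt-RACVECs. LSECs had 2.43, 1.89 and 12.4. In Akt-LECs and Akt-liver ECs the first library was at 4.71 and 5.38 and the other 4 at 0. The macrophage marker sums of Akt-MACs 1 to 3 were 175, 4853 and 12453. Akt-MAC 1 was the lowest of the group in both, while Fmod was highest in Akt-MAC 2 and the marker sum in Akt-MAC 3. The part of these cells in the Fmod levels was not tested.

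Prelp, a class II proteoglycan that anchors basement membranes to connective tissue, had another pattern. It was above 0 in all 24 libraries and was lowest in RACVECs (12.7, 1.38 and 11.0) and Sox17-RACVECs (2.01, 29.6 and 0.62). LSECs had Prelp at 329, 294 and 245, Akt-liver ECs at 297, 93.8 and 242 and Akt-LECs at 130, 786 and 9.11. All LSEC and Akt-liver EC libraries were above every RACVEC and Sox17-RACVEC library. MACs had 9.97, 120 and 34.0 and Akt-MACs 79.2, 329 and 22.1. Akt-RACVECs spread from 1.04 in library 2 and 11.47 in library 1 to 396 in library 3, in which Dcn and Lum were listed at 0 and 11 of 12 mesenchymal markers were also at 0. In the library labelled Sox17-RACVEC 2, with 10 of these markers at 0, Prelp was likewise the most abundant member.

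Osteomodulin (Omd), a class II gene of mineralized tissue, was above 0 in 6 libraries, all of them MACs, Akt-MACs or RACVECs. Its FPKM was 1.11, 19.4 and 0 in MACs, 3.23, 8.55 and 0 in Akt-MACs and 7.21, 0 and 1.81 in RACVECs. Keratocan (Kera), known from the cornea, was at 3.06 in MAC 2, 1.82 in RACVEC 1 and 2.16 in LSEC 3 and at 0 in the other 21 libraries. Epiphycan (Epyc), a class III gene of cartilage, was at 6.59 in MAC 2 and at 0 elsewhere. MAC 2 was the only library in which all 10 genes were above 0.

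Osteoglycin (Ogn), the remaining class III gene, varied widely within groups. Its FPKM was 26.5, 587 and 1.74 in MACs, 21.6, 105 and 26.0 in Akt-MACs and 303, 0 and 98.9 in RACVECs. It was listed at 0 in all 6 Akt-RACVEC and Sox17-RACVEC libraries, below every MAC, Akt-MAC and LSEC library, but RACVEC 2 was also at 0. Akt-LEC 1 was at 22.7 and Akt-liver EC 1 at 26.4, and the other 4 cultured EC libraries were at 0. LSECs had 2.68, 2.31 and 17.4.

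When groups were ordered by mean FPKM, neighbours in the order overlapped in their libraries for Bgn, Dcn and Lum at every step. For Fmod the step from Akt-MACs to LSECs (614 to 5.58) did not overlap, and for Ogn the step from LSECs to Akt-RACVECs (7.47 to 0) did not. Neighbours at the other steps are therefore not separated by the spread between libraries. Groups further apart in the order can be, as RACVECs and Akt-RACVECs were for Lum, Dcn and Bgn. RACVECs had the highest mean of Lum (234) and Dcn (942), and MACs of Bgn, Ogn and Omd.

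Differences between groups are given as differences of mean log2(FPKM + 1) ± standard error, from a limma fit over all 24 libraries and 14964 genes. Where all libraries of a group are listed at 0 the size depends on the pseudocount, and it is not given. For the conversion, RACVECs minus MACs gave 0.85 ± 1.22 for Lum, 1.04 ± 1.56 for Dcn, -0.51 ± 1.73 for Bgn and -2.30 ± 1.69 for Prelp. Of the 8 measured members, 0 were higher and 1, Fmod, was lower in all RACVECs than in all MACs, where 11.4% and 10.5% of all genes did so. The median over the 8 was -0.24, against 0 for all genes. Single libraries set several signs: Dcn was -0.03 without MAC 1, Bgn 0.17 without MAC 2, Ogn ranged from -2.03 without MAC 3 to 2.30 without RACVEC 2, and the median from -1.06 without MAC 3 to 1.06 without MAC 2.

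The headers inside the files give a common mark to MAC 2 and RACVEC 1 and another to MAC 3 and RACVEC 2. In the first pair Ogn was 587 and 303, Omd 19.4 and 7.21, Aspn 11.0 and 27.7 and Kera 3.06 and 1.82. In the second, Ogn was 1.74 and 0 and Omd and Aspn were 0 in both libraries. The chromosome 13 members were thus well above 0 in both libraries of the first pair only. Outside the pairs, Ogn was 26.5 in MAC 1 and 98.9 in RACVEC 3, and Aspn was 13.9 and 20.8. Prelp was lower in the RACVECs of both pairs, with log2 differences of -3.14 and -3.88, while Lum was -0.39 in the first and 3.64 in the second. With 2 pairs no test was made.

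With Akt in converted cells, Akt-RACVECs minus RACVECs gave -7.03 ± 1.22 for Lum, -6.60 ± 1.56 for Dcn and -3.51 ± 1.73 for Bgn. These 3 were lower in all Akt-RACVECs than in all RACVECs and 0 members were higher, where 9.15% and 10.6% of all genes did so. Prelp was 1.56 ± 1.69 and became -0.54 without Akt-RACVEC 3. The median over the 8 measured members was -3.30, against 0 for all genes. With 2 Akt-RACVEC libraries listed at 0, the size for Lum depends on the pseudocount and was -9.53 with 0.1 and -4.10 with 10. The sum of mesenchymal markers was 4132 to 8423 in RACVECs, with Fn1 at 2073 to 4173. In Akt-RACVECs the sum was 273 to 2622, with Fn1 at 273 to 2456. Fn1 made up most of the sum in Akt-RACVECs and also in RACVEC 2 (3981 of 4299). Endothelial markers summed to 2224 to 4591 in RACVECs and to 13978 to 22518 in Akt-RACVECs. Erg, a transduced factor of both groups, was at 0.9 to 13.8 in RACVECs and at 395 to 1002 in Akt-RACVECs. The part of these markers and of Erg in the differences was not tested.

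With Sox17, Sox17-RACVECs minus RACVECs gave -4.76 ± 1.22 for Lum, -5.47 ± 1.56 for Dcn, -5.76 ± 1.73 for Bgn and -0.46 ± 1.69 for Prelp. Lum, Dcn and Bgn were again lower without overlap and 0 members were higher, where 6.55% and 4.05% of all genes did so, and the median was -3.93 against -0.02 for all genes. This contrast shares its RACVEC libraries with the former. Without the library labelled Sox17-RACVEC 2, the differences were -3.46 for Lum, -3.36 for Dcn and -3.65 for Bgn. The mesenchymal marker sum was 5800 and 3071 in the other 2 libraries, nearly all of it Fn1 (5503 and 2808), and 50.3 in Sox17-RACVEC 2. Prrx1 was at 5.76 and 9.02 in those 2 libraries, against 888, 8.27 and 490 in RACVECs. Thy1 was at 3.99 and 39.5, against 1926, 6.87 and 868, and Postn was at 0 in all Sox17-RACVECs. Not all markers fell: Tbx18 was at 42.5 and 36.4 in those 2 libraries, against 32.0 to 41.9 in RACVECs. Twist1 was at 149 and 131, against 177 to 305, and 10 of the 12 markers were at least 1 in each. Smooth muscle and pericyte markers summed to 924, 7.12 and 2054 in Sox17-RACVECs 1 to 3, against 1596, 227 and 634 in RACVECs. The part of such cells in the differences was not tested.

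Without transduced Ets factors, Akt had other values. Akt-MACs minus MACs gave 5.67 ± 1.01 for Fmod and -2.27 ± 1.73 for Bgn, the only members without overlap, and 10.7% and 4.19% of all genes were higher and lower in this way. Dcn was 0.93 ± 1.56, and -0.13 without MAC 1, and Lum was -3.40 ± 1.22 with overlap. Fmod was 4.14 without Akt-MAC 2. Macrophage markers summed to at most 0.79 in MACs and to 175 to 12453 in Akt-MACs. Fli1 was at 2.36, 30.2 and 84.4 in Akt-MACs 1 to 3, against at most 1.61 in MACs. The part of these markers and of Fli1 in the differences was not tested. The median was 0.08, against 0.09 for all genes, and ranged from -1.30 without MAC 3 to 1.23 without MAC 2.

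Where both groups carried Akt, Akt-RACVECs minus Akt-MACs gave -7.33 ± 1.01 for Fmod, -6.49 ± 1.56 for Dcn and -2.79 ± 1.22 for Lum. These and Ogn were lower in all Akt-RACVECs, 0 members were higher, and 22.0% and 15.3% of all genes did so. With other pseudocounts, 0.1 and 10, Lum was -5.03 and -1.01 and Fmod -9.82 and -4.42. Bgn was -1.76 ± 1.73 and Prelp -1.97 ± 1.69, both with overlap. Omd and Aspn, listed at 0 in all Akt-RACVECs, overlapped too. The median over the 8 measured members was -2.38, against -0.09 for all genes. It ranged from -3.35 without Akt-RACVEC 3 to -1.82 without Akt-MAC 1. The macrophage marker sum was 175 to 12453 in Akt-MACs and 1.15 to 19.3 in Akt-RACVECs, and its part in these differences was not tested.

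Set against MACs, the mean of the cultured EC groups gave -4.67 ± 1.06 for Lum, the single member without overlap, where 8.27% of all genes were lower and 10.1% higher. Dcn was -2.27 ± 1.35, Bgn -3.21 ± 1.5, Ogn -3.59 ± 1.69 and Fmod -1.14 ± 0.88, and Prelp was 1.95 ± 1.46. Without Akt-LEC 1 and Akt-liver EC 1, the libraries with markers of macrophages and other cells, Lum was -5.22, Dcn -2.88, Bgn -4.64 and Prelp 1.69. Ogn and Fmod were then listed at 0 in all 4 cultured EC libraries. With pseudocounts of 0.1 and 10 on all libraries, Lum was -5.92 and -2.89, Ogn -5.61 and -2.07 and Fmod -3.04 and -0.19. The median over the 8 members was -2.19, against 0.03 for all genes, and -2.69 without these libraries.

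In the liver, Akt-liver ECs minus LSECs gave -3.40 ± 1.22 for Lum, again the only member without overlap, where 24.9% of all genes were lower and 27.7% higher. Bgn was -4.34 ± 1.73, and -6.32 without Akt-liver EC 1, the library that alone overlapped the LSECs. Dcn was -1.05 ± 1.56 and Prelp -0.60 ± 1.69. The median was -1.03, against 0.08 for all genes, and ranged from -1.74 without Akt-liver EC 1 to -0.37 without Akt-liver EC 2. The size for Lum was -5.59 with a pseudocount of 0.1 and -1.44 with 10, and 2 of the Akt-liver EC libraries were at 0. LSEC 3 had the highest Lum, Dcn, Ogn and Fmod of its group and the lowest Bgn and Prelp. It also had the highest mesenchymal marker sum, 197 against 117 and 127, and the highest hepatocyte marker sum, 11924 against 3274 and 2125, and all 10 stellate cell markers were above 0 in the 3 LSEC libraries. In Akt-liver ECs Lrat was at 0. Their mesenchymal markers summed to 3125 to 6601, but in libraries 2 and 3 Fn1 (4386 and 2774) and Thy1 (2212 and 2316) made up nearly all of the sum and 7 of the 12 markers were at 0. The part of other cells in the LSEC values was not tested.

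**Figure D2:**
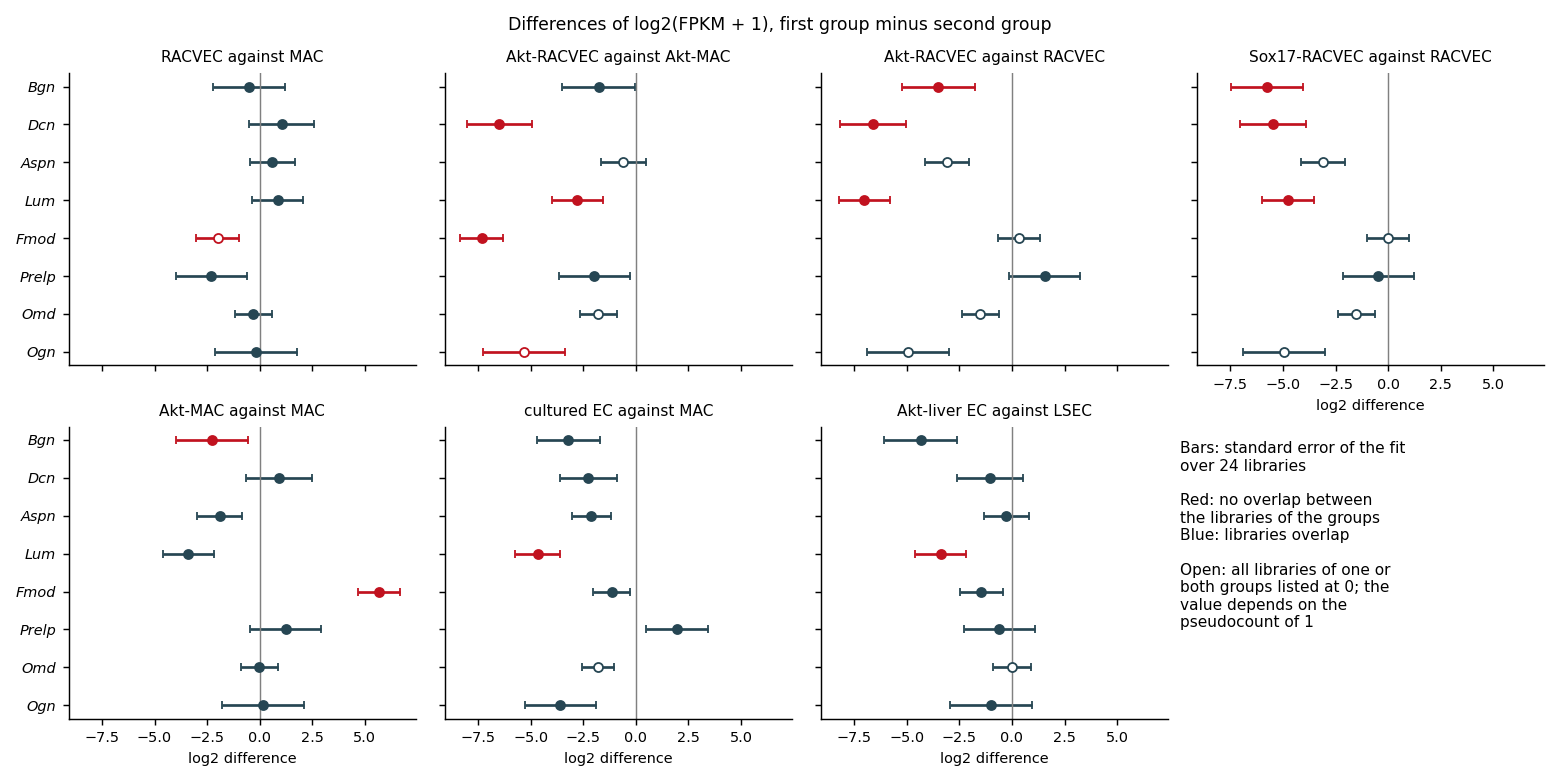
Differences in mean log2(FPKM + 1) of the 8 measured members in 7 comparisons on the horizontal axis, with standard errors, red where the libraries of the groups did not overlap and open where a group was listed at 0 throughout. Lum, Dcn and Bgn were to the left without overlap in both comparisons with RACVECs as the second group, at -7.03, -6.60 and -3.51 with Akt.

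Members were next set beside the endothelial marker sum. The 6 MAC and Akt-MAC libraries had sums of 41.1 to 95.5 and Dcn from 91.1 to 1294. RACVECs had higher sums and Dcn still between 502 and 1637. Akt-RACVECs, with sums of 13978 to 22518, had Dcn of at most 69.3. LSECs had similar sums, 20848 to 23112, and Dcn of 302 to 776, but they also held markers of stellate cells, macrophages and hepatocytes. The part of those cells in the Dcn of LSECs was not tested. Prelp was between 9.97 and 329 at the low sums of MACs and Akt-MACs and between 1.04 and 396 at the high sums of Akt-RACVECs.

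**Figure D3:**
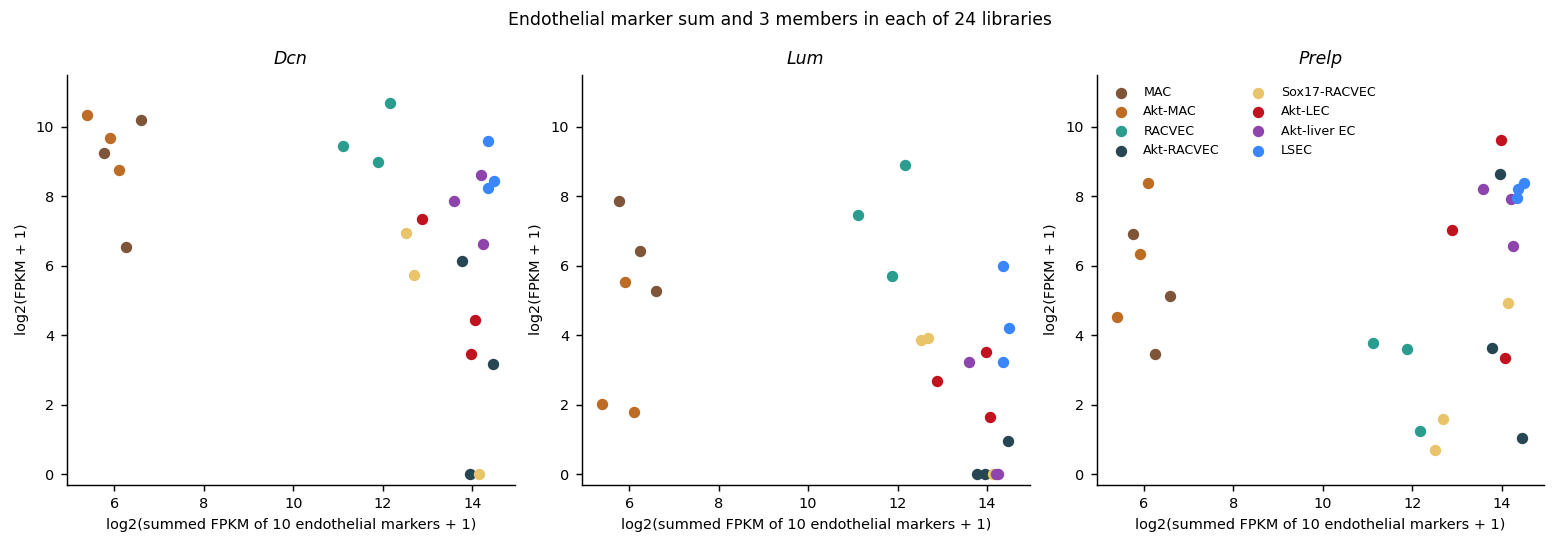
Levels of Dcn, Lum and Prelp, as log2(FPKM + 1), against the log2 of the summed FPKM of 10 endothelial markers plus 1, with a point for each of 24 libraries coloured by group. RACVECs (sums of 2224 to 4591) kept Dcn at 502 to 1637, whereas Akt-RACVECs lay at 0 to 69.3.

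Over the 24 libraries, of which those of a group share their origin, the chromosome 13 neighbours varied together. Pearson's r of log2(FPKM + 1) was 0.81 for Ogn and Omd, 0.79 for Ogn and Aspn and 0.65 for Omd and Aspn, and 0.71, 0.81 and 0.57 after group means were removed. Many of these values are shared zeros. Ecm2, 11.7 kb from Aspn, had r = -0.41 with Ogn, and it was highest in LSECs (90.6, 63.4 and 87.5) and at 0 in Akt-MACs. On chromosome 10, Lum and Dcn had r = 0.61, and 0.39 within groups. Fmod and Prelp on chromosome 1 had r = 0.35. Bgn, on another chromosome, had r = 0.66 with Lum and 0.61 with Dcn, as high as the neighbours Lum and Dcn had with each other. Other pairs of members on different chromosomes ranged from r = -0.2 for Lum and Prelp to 0.63 for Lum and Aspn. These correlations are descriptions and were not tested.

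**Figure D4:**
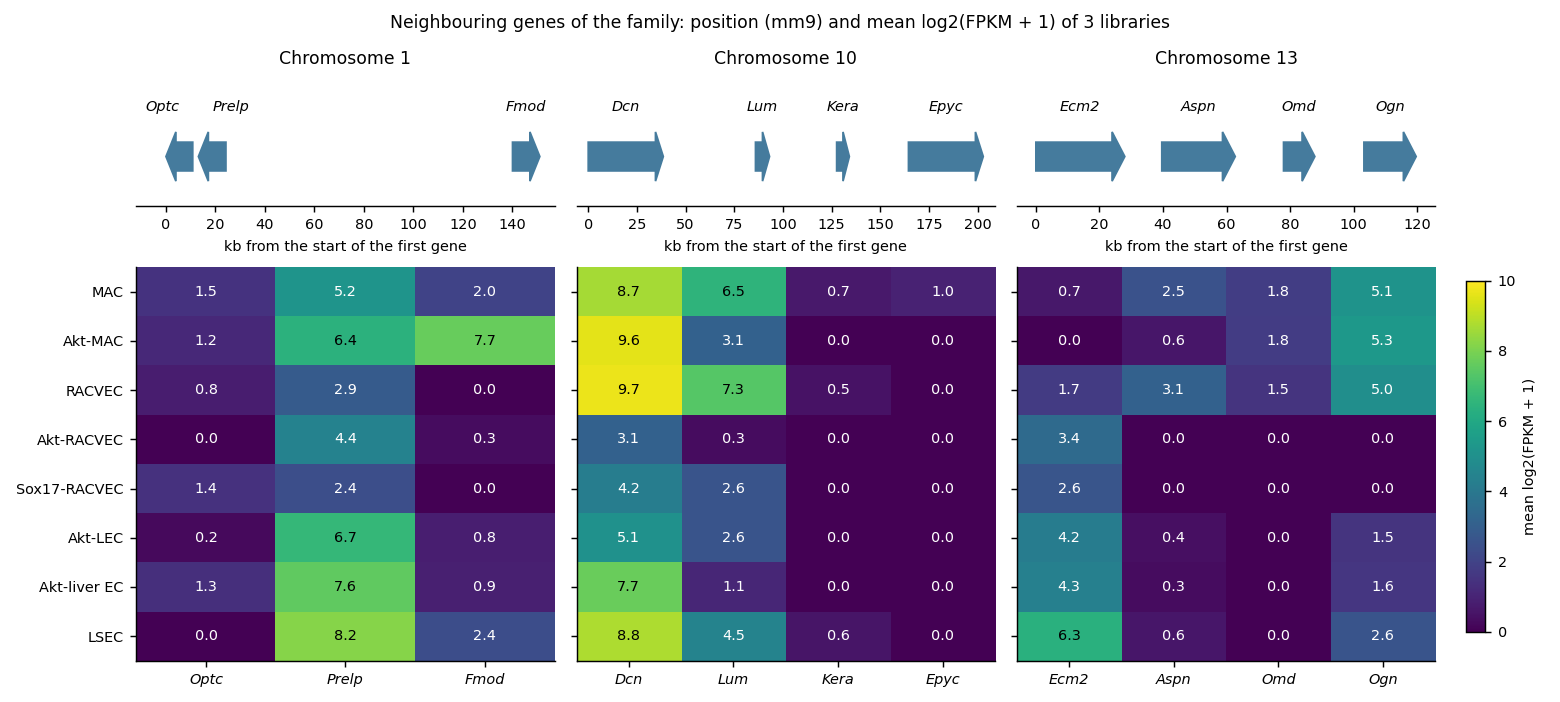
Positions of the 3 gene clusters, in kb from the start of the first gene (arrows show the direction of transcription), above the mean log2(FPKM + 1) of 3 libraries for each gene and group. Aspn, Omd and Ogn were at 0 in Akt-RACVECs and Sox17-RACVECs, where Ecm2 had means of 3.4 and 2.6.

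For each member with a mean FPKM of at least 10, the 3 genes most like it were sought among 11699 genes of at least that mean, by Pearson's r over the 24 libraries. For Lum they were Maged2 (0.87), Snai2 (0.81), a transcription factor of mesenchymal cells, and Ccdc8 (0.79). For Dcn they were Rcn3 (0.92), a calcium-binding protein of the endoplasmic reticulum, Ptgr1 (0.87) and Zfp105 (0.84). For Bgn they were S100a1 (0.81), Tgfbi (0.81), a secreted matrix protein, and Twist1 (0.79), which is also among the mesenchymal markers. Fmod was most like Igfbp2 (0.93), an IGF-binding protein, Rtn1 (0.93) and Slc13a3 (0.91), each of which had its highest mean in Akt-MACs. Ogn was like Pamr1 (0.89) and Aldh1a2 (0.89), an enzyme of retinoic acid synthesis. Prelp was most like Tmem64 (0.86), Gramd3 (0.83) and Dnase2a (0.79). These r values are the largest of many and were not tested.

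Genes that act with the family were tested in the same fit, with Benjamini-Hochberg adjustment over 14964 genes. Their lists were drawn up with earlier results of these data known, so the calls are not independent of that choice. 57 of 66 listed genes were measured: 5 of 8 other family genes, 21 of 22 genes of linker and chondroitin or dermatan sulphate synthesis, 5 of 8 of keratan sulphate synthesis, 10 of 11 fibrillar collagens, 9 of 10 of propeptide processing and collagen cross-linking, and all 7 reported receptors. Calls required an adjusted p under 0.05 together with a log2 difference above 1 or below -1. Fold changes below are log2 of FPKM + 1 and understate those of low genes.

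RACVECs against MACs gave 2 genes called higher and 1 lower, where 1.36% and 1.35% of all genes were called. Csgalnact1, which starts chondroitin chains, was 15.7 ± 10.4 in MACs and 94.1 ± 19.5 (SD, n = 3) in RACVECs, and rose by 2.71 (adjusted p = 0.0448, limma). Chst11, a chondroitin sulphotransferase, fell by 2.92 (adjusted p = 0.0466, limma). Kdr, the main VEGF receptor and also an endothelial marker here, rose by 4.87 (adjusted p = 0.000187, limma). None of the collagens, keratan sulphate genes, processing genes or other family genes was called by limma. At an unadjusted p below 0.05 and the same fold, 5 listed genes were higher and 5 lower, 2 and 2 of them in these lists, against 5.45% and 7.15% of all genes, and the criterion of the study's methods gave 2 and 2. Csgalnact1 had an adjusted p of 0.125 without RACVEC 3 and Chst11 of 0.174 without MAC 3, and in a fit of these groups alone no listed gene was called.

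Akt-RACVECs against RACVECs gave 1 gene higher and 0 lower, with 0.221% and 0.0401% of all genes called by limma. At an unadjusted p below 0.05 and the same fold 3 and 16 listed genes passed, beside 4.79% and 5.24% of all genes, and the criterion of the study's methods gave 1 and 3. The called gene was again Chst11, at 8.65 ± 1.06 in RACVECs and 160.4 ± 64.0 (SD, n = 3) in Akt-RACVECs. It rose by 3.98 (adjusted p = 0.0363, limma), and its adjusted p in limma was at most 0.138, without RACVEC 1, when single libraries were left out. The Akt effect on Chst11 was 3.85 ± 1.09 larger in RACVECs than in MACs, with an adjusted p of 0.146 for this difference in limma, and 0 of the 57 genes passed that test against 8 at an unadjusted p below 0.05. None of the 10 collagens was called, and their median was -1.83, against 0 for all genes. Col1a1 and Col3a1, the chains of the major fibrils to which decorin and lumican bind, were at -7.33 ± 2.26 (adjusted p = 0.122, limma) and -6.56 ± 2.04 (adjusted p = 0.124, limma), with libraries that did not overlap.

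Sox17-RACVECs against RACVECs gave 0 listed genes called in either direction by limma, where 0.00% and 0.00668% of all genes were called. At an unadjusted p below 0.05 and the same fold 2 were higher and 7 lower, beside 1.32% and 3.38% of all genes, and the criterion of the study's methods gave 0 and 1. Lox, which cross-links collagen, was at -6.27 ± 1.51 (adjusted p = 0.300, limma). Akt-MACs against MACs gave 1 higher, Xylt2, which adds the first sugar of the chains, and 0 lower, where 2.59% and 0.214% of all genes were called, all by limma. At an unadjusted p below 0.05 and the same fold 2 were higher and 3 lower, beside 7.54% and 2.19% of all genes, and that criterion gave 1 and 0. Xylt2 rose by 2.11 (adjusted p = 0.0447, limma) and had an adjusted p of 0.224 without Akt-MAC 3.

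Akt-RACVECs against Akt-MACs gave 5 genes higher and 13 lower, where 6.15% and 13.4% of all genes were called. Among the collagens Col1a1 fell by 7.06 (adjusted p = 0.0309), Col5a2 fell by 4.91 (adjusted p = 0.0300) and Col27a1 fell by 3.41 (adjusted p = 0.00431) in limma. Of the cross-linking and processing genes Lox fell by 7.49 (adjusted p = 0.00236, limma), Loxl1, which is also a mesenchymal marker here, fell by 6.04 (adjusted p = 0.0346), and Loxl3 and Bmp1, a protease that matures procollagen and probiglycan, fell too, while Loxl4 rose by 2.87. Chpf, a chondroitin polymerizing factor, fell by 6.29 (adjusted p = 0.00957, limma), with Chst3 and Xylt2, and Csgalnact1 rose by 2.35. Chst1, a keratan sulphate sulphotransferase, rose by 2.91 and Kdr by 6.99, the receptor Lrp1 fell by 4.80 and Egfr fell by 4.23. Of the other family genes Chadl fell by 3.93 (adjusted p = 0.00141, limma), and Ecm2 was called higher (adjusted p = 0.00712), from 0 in all Akt-MACs to between 4.03 and 17.6. The standard errors of these calls were between 0.55 and 2.26, and their adjusted p in limma at most 0.0234 for the higher and 0.0466 for the lower genes. In a fit of these groups alone 3 were called higher and 6 lower. Lower calls numbered 6 to 8 when any 1 of Akt-MACs 1 to 3 or Akt-RACVECs 2 and 3 was left out, and the higher calls 3 without Akt-MAC 2.

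Cultured ECs against MACs gave 5 higher and 15 lower, where 7.30% and 7.51% of all genes were called. 5 of 10 collagens were lower, led by Col1a1 (-5.86, adjusted p = 0.0418), Col3a1 (-5.18, adjusted p = 0.0454) and Col5a3 (-4.52, adjusted p = 0.00572) in limma. Loxl1 (-6.0), Pcolce (-5.90), which enhances procollagen cleavage, Lox (-4.72), Loxl3 and Bmp1 were lower and Tll1, a protease related to Bmp1, was higher (4.43). Chpf (-5.84) and Ust (-3.20) were lower, and Csgalnact1 (3.00), B3gnt2 (1.57), Ecm2 (3.60) and Kdr (7.07) higher. The other family genes Podn (-4.30) and Chadl (-3.08) and the receptor Lrp1 (-4.24) were lower. Standard errors were between 0.45 and 2.01, and the adjusted p in limma was at most 0.0235 for the higher and 0.0455 for the lower genes, 7 of which overlapped the MACs in a library. Without Akt-LEC 1 and Akt-liver EC 1 the counts were 5 and 21. Lower calls numbered 6 to 9 when any 1 of MACs 1 to 3, Akt-LECs 2 and 3 or Akt-liver EC 3 was left out, and 4 in a fit of these groups alone.

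Akt-liver ECs against LSECs gave 13 higher and 7 lower, where 14.1% and 12.9% of all genes were called. In chain synthesis Xylt1 (5.0), Chst11 (4.98), Chsy1 (1.54) and Chpf2 (1.19) led the 6 called higher, and Dse (-2.67), the dermatan sulphate epimerase, and Chst7 (-2.46) were lower. Of the keratan sulphate genes Chst1 was higher (5.68) and Chst2 (-2.92) and B4galt4 (-1.66) lower. Bmp1 (4.98), Loxl4 (2.61) and Col5a1 (3.81) were higher, Tll1 went from 0 in all LSECs to between 31.6 and 172 (adjusted p = 0.00558, limma), and Pcolce2 was lower (-5.13). Met, the receptor of hepatocyte growth factor, was higher (4.66), and Kdr (-2.08) and Tlr2 (-2.46), an innate immune receptor, were lower, in a comparison where macrophage markers differed from at most 259 to at least 7278. Tsku, a related secreted protein, was higher (1.29). Standard errors were between 0.24 and 1.5, the adjusted p in limma was at most 0.0473 for the higher and 0.0307 for the lower genes, and none of these genes overlapped between the groups. Lower calls numbered 2 to 4 when any library but Akt-liver EC 1 was left out.

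**Figure D5:**
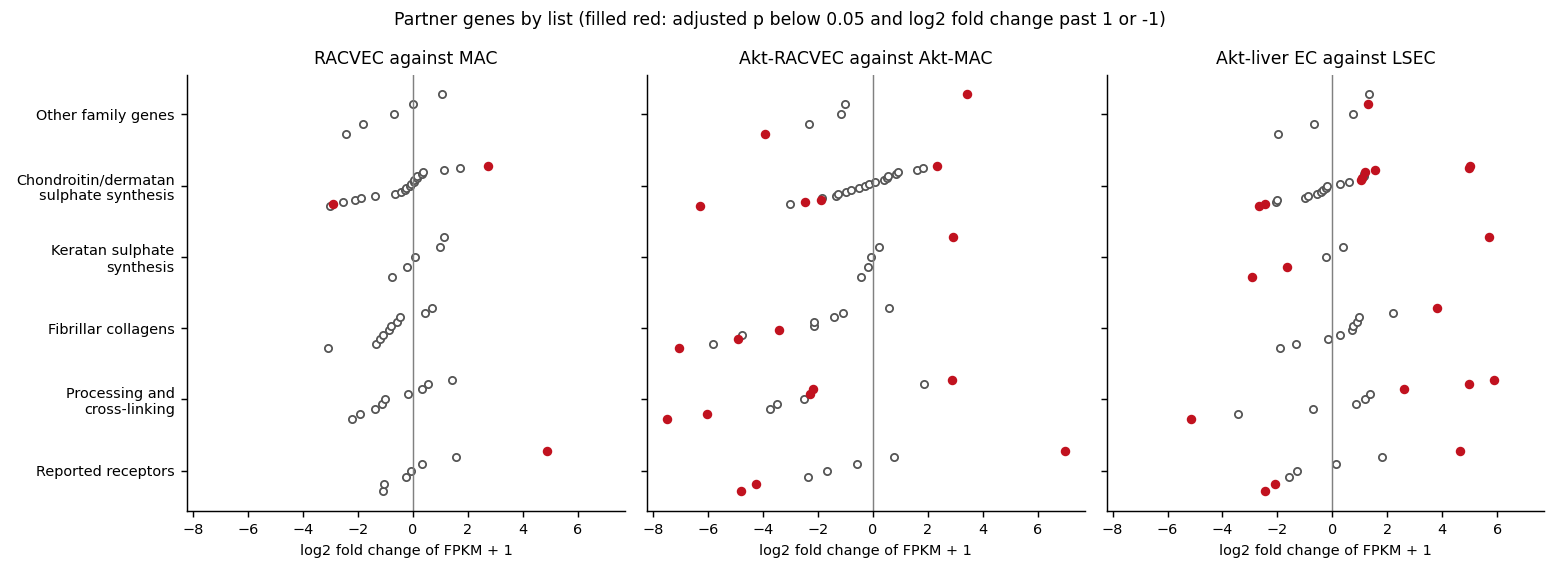
Log2 fold changes of FPKM + 1 of the 57 measured genes that act with the family, in 6 lists and 3 comparisons, with a point per gene filled red where called by limma. 3 points are red for RACVECs against MACs, 18 for Akt-RACVECs against Akt-MACs and 20 for Akt-liver ECs against LSECs.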

How the data were processed

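RNA-seq of 24 libraries was analysed from FPKM values as the authors deposited them. The authors aligned paired reads of 51 bases to mm9 with TopHat and computed FPKM per RefSeq transcript with Cufflinks, with upper-quartile normalization and correction of sequence bias. No counts were used, depth is unknown, and no interval for counting error can be given. Of 27583 transcripts per library, 26934 had a symbol and were summed per symbol. The 649 without a symbol were kept under their own names, and both kinds make up the 22282 genes. No files of 2 libraries were identical.

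Differences were fitted on log2(FPKM + 1) with limma 3.58.1 (R 4.3.3), in 1 fit of 8 group means with trended variances, for the 14964 genes whose FPKM averaged 1 or more over all libraries, two-sided and with Benjamini-Hochberg adjustment. The fit was tested on simulated data. Tables were made with pandas 2.3.3 in Python 3.11.15. Members and lists were chosen with earlier results of these data known, so members have no p-value. The p-values of the listed genes carry the same limit. Named were all members in every group, up to 4 called genes per list and direction by size of change, the transcripts of members with several, the 3 genes most like each member averaging 10 FPKM or more, and transduced or marker genes that bear on a result. 1 gene named by this rule is not reported here. Other genes named without a call were chosen after their values were seen. They were Col1a1 and Col3a1 for Akt-RACVECs against RACVECs and Lox for Sox17-RACVECs against RACVECs. Promoter windows came from RefSeq on GRCm38.p6, and none was given for Lum and Dcn. Alternatives were pseudocounts of 0.1 and 10, no filter or a mean of at least 10, scaling by the median shift, only the groups compared, the replicate number as a block, the study's criterion (mean FPKM changed more than 2-fold, with p under 0.05 before adjustment on linear FPKM and unequal variances), and leaving out each library. Leaving out Akt-LEC 1 together with Akt-liver EC 1 was added after seeing the data.

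Same-numbered libraries did not deviate together: the mean correlation of their deviations from group means was between -0.111 and 0.072 over the comparisons.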

Additional observations from a re-analysis of the deposited data

How the results depend on the processing

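No called gene changed direction under the alternatives run, though 106 of these genes' values under other settings and 147 with a library left out lost the call, against 393 and 311 that kept it. Of the members' differences, 44 under other settings and 12 with a library left out moved by more than the spread between libraries, against 390 and 356 that did not. The counts of listed genes called depended on the fit, and the cause was not tested except where fewer libraries entered. For RACVECs against MACs, 2 higher and 1 lower became 1 and 0 with a pseudocount of 10, and 0 and 0 with only the groups compared. The lower count was 2 with a pseudocount of 0.1 or the study's criterion, and 0 with no filter or a mean of at least 10. For Akt-RACVECs against Akt-MACs, 5 and 13 became 3 and 6 with only the groups compared and 2 and 7 by the criterion. For Akt-RACVECs against RACVECs the 1 higher became 2 with a pseudocount of 10 or a mean of at least 10 and 0 with only the groups compared, and the criterion gave 3 lower. The criterion gave 1 lower with Sox17. For Akt-MACs against MACs the 1 higher became 0 with a mean of at least 10, with scaling by the median shift and with only the groups compared. For cultured ECs the 15 lower became 4 with only the groups compared and 5 by the criterion, and were 21 without Akt-LEC 1 and Akt-liver EC 1.

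Replicate numbers are shared by the groups but did not pair the libraries. With the number as a replicate block, in fits of only the groups compared, the counts higher and lower were 0 and 0 both for the conversion of MACs and for that of Akt-MACs, 0 higher where Akt was added to RACVECs or to MACs, 3 and 1 for cultured ECs against MACs, and 4 lower for Akt-liver ECs against LSECs.

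When 1 library was left out, counts higher and lower ranged over 1 to 2 and 0 to 3 for RACVECs against MACs, 3 to 5 and 6 to 12 for Akt-RACVECs against Akt-MACs, 0 to 1 and 0 for Akt-RACVECs against RACVECs, 0 to 1 and 0 to 2 for Akt-MACs against MACs, 3 to 5 and 6 to 18 for cultured ECs and 11 to 12 and 2 to 7 for Akt-liver ECs against LSECs, and were 0 with Sox17. Without MAC 2 the 3 lower in RACVECs and without MAC 3 the 2 lower in Akt-MACs were the highest of these. The median of the members for Akt-RACVECs against Akt-MACs, -2.38, was -4.43 with a pseudocount of 0.1, -1.36 with one of 10 and -4.06 with a mean of at least 10, since members listed at 0 depend on the pseudocount and fewer members pass that filter. With pseudocounts of 0.1 and 10 the medians against RACVECs were -4.40 and -1.99 for Akt-RACVECs and -5.59 and -1.99 for Sox17-RACVECs, and both were -2.30 with no filter. The same pseudocounts gave -3.32 and -1.38 for cultured ECs, -1.99 and -0.47 for Akt-liver ECs against LSECs and 0.22 and -0.23 for Akt-MACs against MACs. Unknown depth limits the low values most, and a gene listed at 0 need not be absent.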
